A study of Mus musculus with 6 samples.

Results

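The genes described here are 35 genes of the lysosome, taken by name from the 54532 genes of the deposited expression table of mouse acute myeloid leukemia (AML) cells. They encode acid hydrolases, their protein cofactors and proteins of the lysosomal membrane, and they leave out the cathepsins. All 35 were found in the table and all passed the filter on low counts, with at least 6 reads in every library. The genes were 12 glycosidases, 5 sulfatases (the sulfamidase *Sgsh* included), 6 lipid hydrolases and lipid-binding cofactors, 3 peptidases and thioesterases, 2 acid phosphatases and 7 membrane proteins.

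Both groups of leukemia were driven by RUNX1-ETO9a (RE9a), a truncated form of the t(8;21) fusion protein, delivered with GFP by retrovirus into lineage-negative fetal liver cells that were then passed through male recipients. The controls, *WT Phf6,RE9a* (libraries 1, 2 and 3), carried the floxed allele *Phf6 fl/y* without Cre, and the *VC Phf6,RE9a* leukemias (libraries 11, 12 and 13) were *Vav1-Cre;Phf6 fl/y*, in which Cre is driven by the pan-hematopoietic *Vav1* promoter. RNA came from GFP+ cells sorted from bone marrow, which are donor-derived cells that took up the virus and need not all be blasts. Neither the age of the mice nor whether the 3 libraries of a group were separate leukemias is given in the labels, so p-values measure the spread between libraries only.

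Lysosomal hydrolases are made in the endoplasmic reticulum, tagged with mannose 6-phosphate in the Golgi and carried to the lysosome, where a proton pump, the V-ATPase, keeps the pH low enough for them to work. Each enzyme cleaves a particular kind of bond, so sugar chains, sphingolipids and glycosaminoglycans are taken apart in a fixed order, and loss of a single enzyme lets its substrate build up, as in the lysosomal storage diseases. Many of these genes carry the E-box CACGTG close to their start, which transcription factors of the MiT family (TFEB, TFE3, MITF and TFEC) bind. Mast cells, macrophages and osteoclasts are rich in lysosomes or in secretory granules related to them.

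The depth was similar across the table, with 15675358 to 16817994 counted reads in a library. *Phf6*, the check of the labels, was at 9.76, 8.01 and 9.84 FPKM (fragments counted per kilobase of gene, scaled to the size of the library, as deposited) in the *WT Phf6,RE9a* libraries and at 3.26, 2.61 and 2.78 in the *VC Phf6,RE9a* libraries, a log2 fold change of -1.66 ± 0.13 (SE). Cell type markers also moved, where 22.7% of all genes tested were lower and 21.5% higher (edgeR, adjusted p under 0.05). Of 14 markers of mast cells and basophils, 13 fell with *Phf6* loss, and their summed level was 10652 to 17159 FPKM in *WT Phf6,RE9a* and 1419 to 1675 FPKM in *VC Phf6,RE9a* libraries. One of them is *Kit*, whose protein the authors also used to count GFP+ c-Kit+ leukemia cells. Of 16 genes of maturing neutrophils and monocytes, 15 were higher, with sums of 204 to 598 and 1219 to 4574 FPKM. All 9 erythroid genes were higher (1776 to 2746 and 5674 to 6661 FPKM), as were the 5 of 7 B cell genes that could be tested (1.53 to 4.33 and 13.2 to 35.7 FPKM). Of 14 macrophage genes 11 were tested and 4 were higher, with sums of 5.92 to 12.5 and 14.8 to 16.4 FPKM. The T cell genes summed to at most 1.71 FPKM in any library. In these bulk libraries fewer cells of a type and less RNA per cell cannot be told apart, and the part of these shifts in the lysosomal results was not tested.

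The E-box gives the sequence context of several results below. RefSeq promoter windows (GRCm38.p6, 250 bases before to 50 bases after the start) were at hand for 32 of the 35 genes, and the letters CACGTG, which read the same on both strands, occurred in 10 of them (31.25%). The share was 8.09% of the 27025 genes with a window and 11.7% of those that were also tested here, while among the other lysosomal genes described below the letters occurred in 27 of 102 with a window (26.5%). The stretch around the E-box is shown for 6 genes because they belong to 4 of the 6 largest decreases, to the largest increase and to the gene with most matches. Each is written 5′ to 3′ on the strand of its gene with the E-box in capitals. The *Lamp1* stretch holds all 4 of its matches, and the *Gla* stretch holds the one at -194 bases from the start, not the other at -227.

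Naglu: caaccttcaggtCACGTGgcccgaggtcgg
Sgsh: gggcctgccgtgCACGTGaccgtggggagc
Gla: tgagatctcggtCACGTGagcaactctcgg
Glb1: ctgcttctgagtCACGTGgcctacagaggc
Lgmn: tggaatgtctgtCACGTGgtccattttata
Lamp1: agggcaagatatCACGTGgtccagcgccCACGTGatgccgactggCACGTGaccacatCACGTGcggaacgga

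These runs lie at chr11:101070009-101070038 (+ strand) for *Naglu*, chr11:119355522-119355551 (- strand) for *Sgsh*, chrX:134601182-134601211 (- strand) for *Gla*, chr9:114401018-114401047 (+ strand) for *Glb1*, chr12:102439124-102439153 (- strand) for *Lgmn* and chr8:13159088-13159160 (+ strand) for *Lamp1*. In GENCODE M21 the *Naglu* run shares 27 bases and the *Sgsh* run 15 bases with an annotated exon of its own gene. The *Gla* run lies on an exon of its neighbour *Hnrnph2*, the *Lgmn* run lies inside the gene's span but on no exon, and the *Glb1* and *Lamp1* runs lie upstream of the annotated gene. The other genes with a match were *Arsa*, *Gaa*, *Cln3* and *Mcoln1*. A match describes the letters and shows no binding.

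In *VC Phf6,RE9a* cells, 22 of the 35 genes were lower and 6 were higher than in *WT Phf6,RE9a* cells (edgeR, adjusted p under 0.05 over 14169 genes), and 7 did not pass the test. Among all genes tested, 22.7% were lower and 21.5% were higher. Scaled by total counts in place of TMM, the split was 18 lower and 8 higher for the 35 genes, and 2474 lower and 4048 higher for all genes tested. The median log2 fold change was -0.53 over the 35 genes and 0.01 over all genes tested. The *VC Phf6,RE9a* libraries were all below the *WT Phf6,RE9a* libraries for 22 of the genes and all above for 8, where 28.4% and 28.9% of all tested genes were so. Most decreases were modest, and 7 of the 22 reached 2-fold, as did 4 of the 6 increases.

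**Figure D1:**
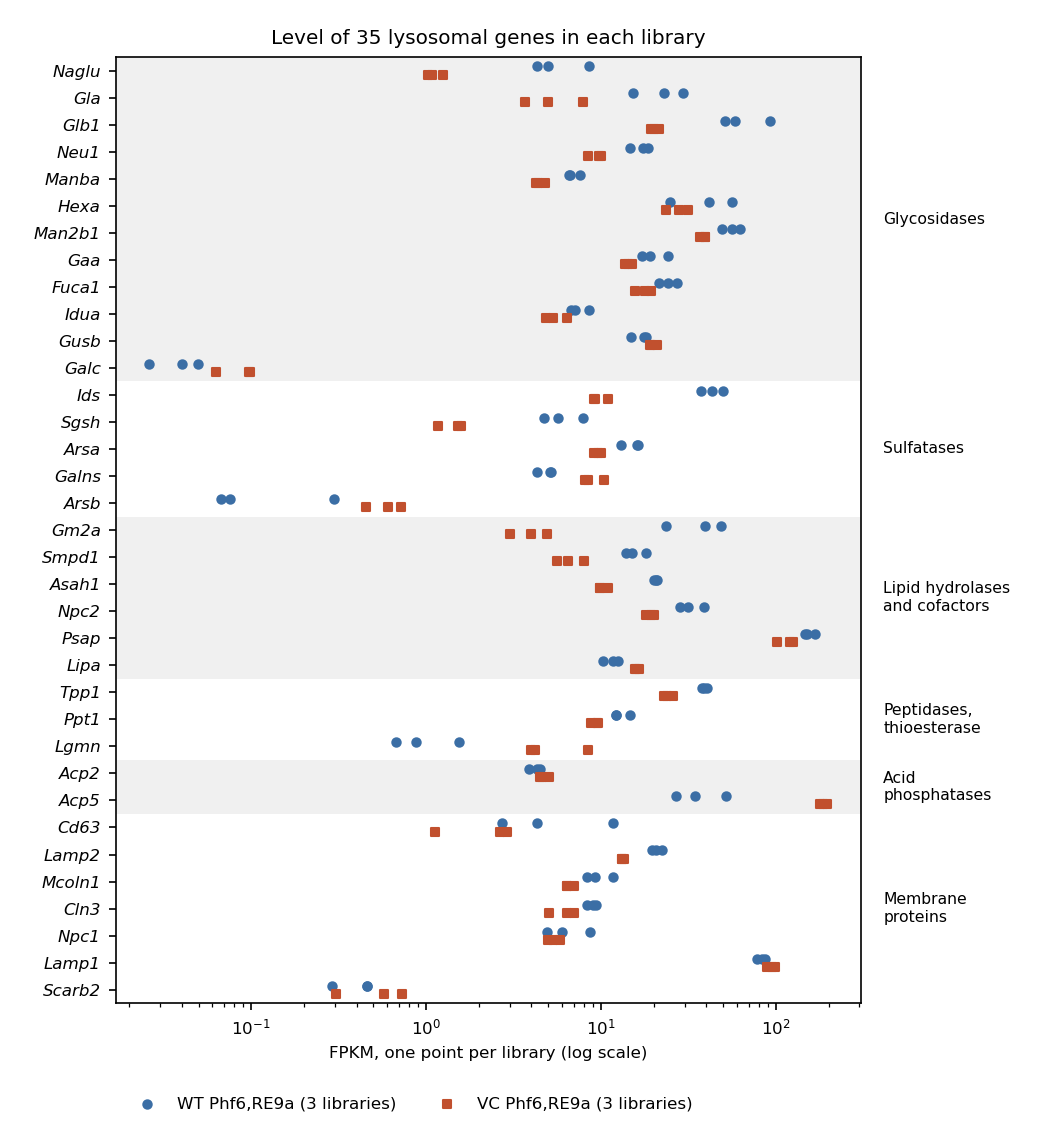
FPKM on a log axis of the 35 genes, grouped by role, with 1 point per library (circles, 3 *WT Phf6,RE9a*; squares, 3 *VC Phf6,RE9a*). Most squares lie to the left of the circles of the same gene, *Gm2a*, *Ids*, *Naglu* and *Sgsh* with the widest gaps, whereas *Acp5*, *Lgmn* and *Arsb* have squares far to the right.

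The levels themselves spanned a wide range. The highest means over the 6 libraries were those of *Psap*, *Acp5*, *Lamp1* and *Man2b1*, and the lowest were those of *Scarb2*, *Arsb* and *Galc*, all 3 under 1 FPKM. *Psap*, the precursor of the 4 saposins that present sphingolipids to their enzymes, was at 146, 168 and 151 FPKM in the *WT Phf6,RE9a* libraries and at 126, 121 and 101 FPKM in the *VC Phf6,RE9a* libraries. It held rank 1 among the 35 genes in the controls and rank 2 after *Phf6* loss, where *Acp5* came first. *Glb1* went from rank 3 to rank 7, *Ids* from rank 5 to rank 15 and *Gm2a* from rank 9 to rank 29.

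The summed level of the 35 genes was 808, 955 and 808 FPKM in the *WT Phf6,RE9a* libraries and 742, 738 and 693 FPKM in the *VC Phf6,RE9a* libraries, 15.5% lower on average. *Acp5* weighed heavily on this sum. Without it, the other 34 genes summed to 774, 928 and 756 FPKM against 547, 560 and 508 FPKM, which is 34.3% lower. *Acp5* was picked after its rise was seen and no falling gene was left out, a choice that by itself enlarges the decrease. In both sums every *VC Phf6,RE9a* library lay below every *WT Phf6,RE9a* library. With 3 libraries against 3, an exact permutation test cannot give a p below 0.1, so none is given.

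The spread within a group can be read from the coefficient of variation (SD over mean) of each gene. Its median was 13.7% in the controls and 8.93% after *Phf6* loss, and it was larger in the controls for 24 of the 35 genes. *WT Phf6,RE9a* library 2 was the highest of its group for 23 genes. In *VC Phf6,RE9a*, library 13 was the lowest of its group for 17 genes and library 12 the highest for 16.

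Among the 12 glycosidases, which cut sugars from glycoproteins, glycolipids and glycosaminoglycans, 9 were lower, 1 was higher and 2 did not pass the test. For this and the later counts by role, 22.7% of all genes tested were lower and 21.5% higher. No role was tested as a set. *Naglu* (chr11:101070012-101077672, GRCm38 as for all gene positions here) removes N-acetylglucosamine from heparan sulfate. It was at 8.55, 4.99 and 4.30 FPKM in the *WT Phf6,RE9a* libraries and at 1.25, 1.023 and 1.08 FPKM in the *VC Phf6,RE9a* libraries. The groups were far apart, *WT Phf6,RE9a* library 1 standing above the other two, and the log2 fold change was -2.40 ± 0.30 (SE), or 5.27-fold lower (adjusted p = 0.000633).

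*Gla* (chrX:134588149-134601125), the α-galactosidase A missing in Fabry disease, was at 22.9, 29.3 and 15.1 FPKM in *WT Phf6,RE9a* and at 7.84, 4.94 and 3.70 FPKM in *VC Phf6,RE9a*. No libraries overlapped, and *Gla* was 4.06-fold lower (log2 fold change -2.02 ± 0.32, adjusted p = 0.00192). *Glb1* (chr9:114401076-114474898), the β-galactosidase of gangliosides and keratan sulfate, was at 58.6, 92.9 and 50.9 FPKM and at 19.99, 21.5 and 19.4 FPKM. It was 3.30-fold lower (log2 fold change -1.72 ± 0.21, adjusted p = 0.000643), with *WT Phf6,RE9a* library 2 the highest. On the same strand, *Glb1* shares 165 of its 3008 exon bases with *Tmppe*, so reads there could be counted for either gene. *Tmppe* had 355 to 1868 reads in a library against 1000 to 4152 for *Glb1*.

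*Man2b1*, the lysosomal α-mannosidase and the most abundant glycosidase here, was at 56.3, 62.3 and 48.8 FPKM in *WT Phf6,RE9a* and at 39.4, 36.9 and 39.5 FPKM in *VC Phf6,RE9a*. The groups did not overlap, and the log2 fold change was -0.52 ± 0.11 (adjusted p = 0.00644). The remaining decreases in this group were also below 2-fold. They were the sialidase *Neu1* (log2 fold change -0.83), the β-mannosidase *Manba* (-0.63), the glycogen-degrading α-glucosidase *Gaa* (-0.49), the α-fucosidase *Fuca1* (-0.45) and the α-iduronidase *Idua* (-0.42).

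The call for *Idua* was the least secure of the decreases. Its adjusted p was 0.0473, and it was not called in 9 of 13 alternative fits, over all of which the log2 fold change stayed between -0.53 and -0.27. Among them were the fits without *WT Phf6,RE9a* library 2 (-0.33) or 3 (-0.46) and without *VC Phf6,RE9a* library 11 (-0.34) or 13 (-0.40). *Gaa* (adjusted p = 0.0185) was not called without *VC Phf6,RE9a* library 11 (log2 fold change -0.45, adjusted p = 0.0716) or library 13 (-0.49, adjusted p = 0.0542). *Fuca1* (adjusted p = 0.0187) was not called without *VC Phf6,RE9a* library 11 (-0.37, adjusted p = 0.0774) or library 12 (-0.45, adjusted p = 0.0598).

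The 1 glycosidase called higher was *Galc*, the galactosylceramidase missing in Krabbe disease, and it was barely read. It had 6, 11 and 10 reads in the *WT Phf6,RE9a* libraries and 25, 25 and 16 reads in the *VC Phf6,RE9a* libraries. The reads did not overlap between groups, and the log2 fold change was 1.15 ± 0.38 (adjusted p = 0.0423). The call was absent when any 1 of the 6 libraries was left out, with adjusted p from 0.0505 to 0.133, and in DESeq2 (adjusted p = 0.137).

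*Hexa* and *Gusb* did not pass the test. *Hexa*, the α subunit of β-hexosaminidase, was at 24.8, 56.2 and 41.6 FPKM in *WT Phf6,RE9a* and at 27.9, 31.6 and 23.6 FPKM in *VC Phf6,RE9a*, with control library 1 inside the range of the other group. Its log2 fold change was -0.56 with a 95% interval of -1.18 to 0.07 (adjusted p = 0.133), and without that library it was -0.82 (adjusted p = 0.0109). *Gusb*, the β-glucuronidase, had a log2 fold change of 0.24 (95% interval 0.0088 to 0.47, adjusted p = 0.0859), with every *VC Phf6,RE9a* library above every *WT Phf6,RE9a* library.

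**Figure D2:**
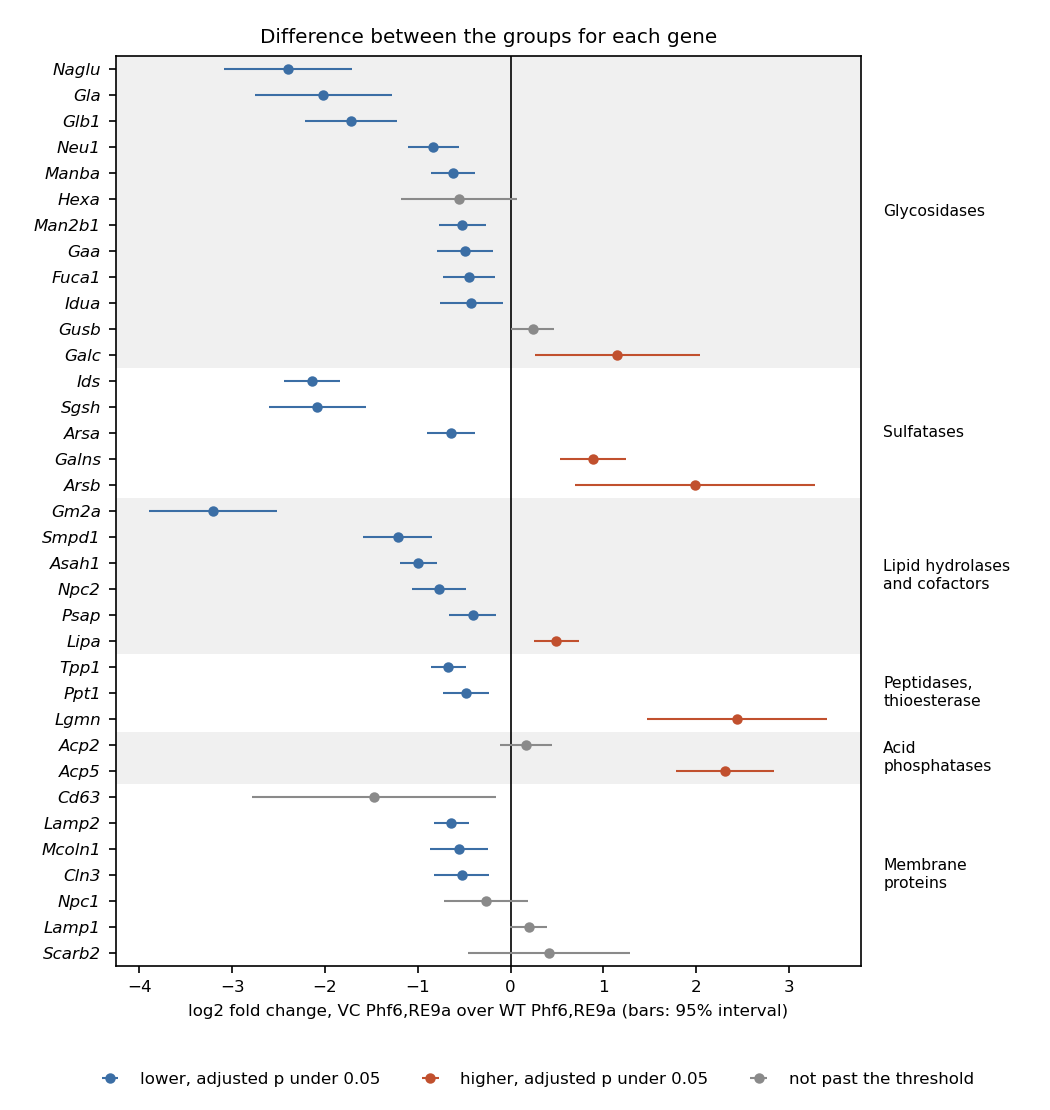
Log2 fold change (positive where *VC Phf6,RE9a* is higher) for the 35 genes by role (points), with 95% intervals as bars and colour for the call. The 9 lower glycosidases and 5 lower lipid genes lie left of 0, *Gm2a* furthest at -3.21, and the 6 higher genes include both of the largest positive values, *Lgmn* at 2.44 and *Acp5* at 2.31.

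All 5 sulfatases moved, 3 down and 2 up. They remove sulfate from glycosaminoglycans or sulfatide and need a formylglycine made by SUMF1. *Ids* (chrX:70343069-70365084), the iduronate-2-sulfatase missing in Hunter syndrome, was at 49.5, 43.3 and 37.2 FPKM in *WT Phf6,RE9a* and at 9.07, 10.98 and 9.23 FPKM in *VC Phf6,RE9a*. The libraries of each group lay close together relative to the gap, and the gene was 4.41-fold lower (log2 fold change -2.14 ± 0.13, adjusted p = 4.03e-05).

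*Sgsh* (chr11:119343425-119355536), the sulfamidase of heparan sulfate, was at 7.87, 5.70 and 4.71 FPKM and at 1.17, 1.59 and 1.52 FPKM. The groups were well separated, and *Sgsh* was 4.23-fold lower (log2 fold change -2.08 ± 0.23, adjusted p = 0.000363). *Arsa*, the arylsulfatase A that acts on sulfatide, fell by 0.64 on the log2 scale (adjusted p = 0.0027).

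The other two sulfatases rose. *Galns* (chr8:122578242-122611463), which acts on keratan sulfate and chondroitin 6-sulfate, was at 4.29, 5.13 and 5.15 FPKM in *WT Phf6,RE9a* and at 8.38, 10.4 and 8.12 FPKM in *VC Phf6,RE9a*. It was 1.86-fold higher with no overlap (log2 fold change 0.89 ± 0.15, adjusted p = 0.00284).

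*Arsb* (chr13:93771630-93943016), which acts on dermatan and chondroitin 4-sulfate, had few reads. They were 7, 6 and 30 in *WT Phf6,RE9a* and 74, 63 and 47 in *VC Phf6,RE9a* libraries. *WT Phf6,RE9a* library 3 lay nearest to the other group, and the log2 fold change was 1.99 ± 0.56 (adjusted p = 0.0221). Without that library the log2 fold change was 3.04 (adjusted p = 0.00178). The call was lost without *WT Phf6,RE9a* library 1 (1.67, adjusted p = 0.0658) or library 2 (1.64, adjusted p = 0.0513), and without *VC Phf6,RE9a* library 11 (1.84, adjusted p = 0.0685) or library 12 (1.98, adjusted p = 0.0591). Library 3 was also the highest of the *WT Phf6,RE9a* libraries in its summed neutrophil and monocyte markers, at 598 FPKM. It was the lowest of them in its summed mast cell and basophil markers, at 10652 FPKM. The part of either in the *Arsb* reads was not tested.

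Of the 6 lipid hydrolases and cofactors, 5 were lower and 1 was higher. *Gm2a* (chr11:55098115-55113029), the activator that lifts GM2 ganglioside out of the membrane for β-hexosaminidase A, had the largest decrease of all 35 genes. It was at 23.5, 48.4 and 39.0 FPKM in *WT Phf6,RE9a* and at 3.996, 4.93 and 3.01 FPKM in *VC Phf6,RE9a*. Even the lowest *WT Phf6,RE9a* library stood several times above the highest *VC Phf6,RE9a* library, and *Gm2a* was 9.24-fold lower (log2 fold change -3.21 ± 0.30, adjusted p = 0.000177).

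The sphingomyelinase *Smpd1*, which makes ceramide, was at 15.6 ± 2.14 FPKM (SD, n = 3) in *WT Phf6,RE9a* and at 6.65 ± 1.198 FPKM in *VC Phf6,RE9a*, and fell by 1.22 on the log2 scale (edgeR adjusted p = 0.000859). The acid ceramidase *Asah1*, which breaks ceramide down, was at 20.5 ± 0.374 and 10.2 ± 0.597 FPKM (SD, n = 3) and fell by 0.99 (edgeR adjusted p = 0.000142). The cholesterol-binding *Npc2* fell by 0.77 (adjusted p = 0.00228).

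*Psap*, whose levels are given above, fell by 0.41 (SE 0.11, adjusted p = 0.0187). It was not called without *VC Phf6,RE9a* library 13, its lowest (log2 fold change -0.33, adjusted p = 0.0703). *Lipa* (chr19:34492318-34527474), the acid lipase of cholesteryl esters and triglycerides, went the other way. It was at 10.2, 12.4 and 11.7 FPKM in *WT Phf6,RE9a* and at 15.9, 15.7 and 16.5 FPKM in *VC Phf6,RE9a*, without overlap and 1.41-fold higher (log2 fold change 0.49 ± 0.10, adjusted p = 0.00696).

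Of the peptidases and thioesterases, 2 were lower and 1 was higher. The tripeptidyl peptidase *Tpp1* (log2 fold change -0.67, adjusted p = 0.000563) and the palmitoyl-protein thioesterase *Ppt1* (-0.48, adjusted p = 0.00909), both known from neuronal ceroid lipofuscinoses, fell. *Lgmn* (chr12:102394084-102439813), the asparaginyl endopeptidase that also processes cathepsins, had the largest increase. It was at 0.671, 1.54 and 0.876 FPKM in *WT Phf6,RE9a* and at 4.19, 8.47 and 3.97 FPKM in *VC Phf6,RE9a*. *VC Phf6,RE9a* library 12 had about as much as the other two together, all 3 were above the *WT Phf6,RE9a* libraries, and *Lgmn* was 5.42-fold higher (log2 fold change 2.44 ± 0.42, adjusted p = 0.00283).

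Of the acid phosphatases, 1 was higher and 1 did not pass the test. *Acp5* (chr9:22126727-22135711), the tartrate-resistant acid phosphatase by which osteoclasts are stained, was at 34.6, 26.7 and 51.97 FPKM in *WT Phf6,RE9a* and at 196, 177 and 185 FPKM in *VC Phf6,RE9a*. It was 4.96-fold higher (log2 fold change 2.31 ± 0.23, adjusted p = 0.000234), and its part of the summed level of the 35 genes was 4.41% in the controls and 25.7% after *Phf6* loss. Of 8 osteoclast markers, *Calcr*, *Ocstamp* and *Dcstamp* had no read in any library, and *Ctsk* was at most 0.462 FPKM. *Mmp9* was higher, at 2.37, 1.997 and 6.50 FPKM in the controls and 40.1, 31.1 and 10.2 FPKM after *Phf6* loss. *Itgb3* was lower (means of 4.25 and 0.424 FPKM), and *Atp6v0d2* (0.351 and 0.157 FPKM) did not pass the test. The 8 summed to 7.16 to 9.34 FPKM in the controls and 10.9 to 41.5 FPKM after *Phf6* loss, where *Mmp9* made up most of each sum. Within each group, *Mmp9* had the same order of libraries as the summed neutrophil and monocyte markers. Those sums were 249, 204 and 598 FPKM in the controls and 4574, 2883 and 1219 FPKM after *Phf6* loss. The part of either set of markers in the *Acp5* increase was not tested. *Acp2*, the other lysosomal acid phosphatase, had a log2 fold change of 0.17 (95% interval -0.11 to 0.45, adjusted p = 0.293).

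Of the 7 membrane proteins, 3 were lower and 4 did not pass the test. *Lamp1*, a main glycoprotein of the lysosomal membrane and the carrier of 4 E-boxes, was at 78.1, 86.3 and 83.4 FPKM in *WT Phf6,RE9a* and at 94.4, 99.0 and 88.3 FPKM in *VC Phf6,RE9a*. The libraries did not overlap, but the log2 fold change was small, at 0.19 (95% interval -0.0032 to 0.39, adjusted p = 0.101). *Lamp2*, its paralog with a role in autophagy, fell by 0.64 (adjusted p = 0.000693), from 20.8 ± 1.36 to 13.3 ± 0.194 FPKM (SD, n = 3, edgeR). *Lamp1* made up 9.64% of the summed level of the 35 genes in the controls and 12.96% after *Phf6* loss, and *Lamp2* made up 2.43% and 1.83%.

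The calcium channel *Mcoln1* (log2 fold change -0.55, adjusted p = 0.0122) and the Batten disease protein *Cln3* (-0.53, adjusted p = 0.0128) were also lower. The tetraspanin *Cd63*, which is found on lysosomes and on mast cell granules, was at 4.30, 11.7 and 2.70 FPKM in *WT Phf6,RE9a* and at 2.90, 2.66 and 1.12 FPKM in *VC Phf6,RE9a*. Its groups overlapped, and the log2 fold change of -1.47 (95% interval -2.79 to -0.16) had an adjusted p of 0.0679. *WT Phf6,RE9a* library 2 weighed heavily on it, since without that library the log2 fold change was -0.65 (adjusted p = 0.24). Without *WT Phf6,RE9a* library 3 it was -1.84 (adjusted p = 0.0271). The cholesterol exporter *Npc1* (-0.27, adjusted p = 0.305) and the β-glucocerebrosidase receptor *Scarb2* (0.41, adjusted p = 0.409) did not pass, and *Scarb2* had at most 78 reads in a library.

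Genes that act on the same substrate were set side by side, a grouping made after the values were seen and therefore given without a test. Heparan sulfate is removed from its end by a chain of enzymes, 5 of which are among the 35 genes, and *Hgsnat* and *Arsg* were added from the other lysosomal genes. Of these 7 genes, 5 were lower, where 22.7% of all genes tested were lower and 21.5% higher. In edgeR and in DESeq2 0 were higher, and at an unadjusted p under 0.05 in edgeR 1 was (*Gusb*). *Naglu*, *Ids* and *Sgsh* were 4.23-fold to 5.27-fold lower, whereas the acetyltransferase *Hgsnat* (log2 fold change -0.45) and *Idua* (-0.42) differed less. *Gusb*, which also acts on heparan sulfate, and *Arsg* (0.16, adjusted p = 0.545) did not pass the test.

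Ganglioside breakdown runs through *Glb1*, the hexosaminidase subunit *Hexa*, the cofactor *Gm2a* and the sialidase *Neu1*. Of these 4 genes, 3 were lower and *Hexa* did not pass, where 22.7% of all genes tested were lower. For comparison, the cofactor *Gm2a* had a log2 fold change of -3.21 and *Hexa* one of -0.56, differences between genes that were not tested.

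**Figure D3:**
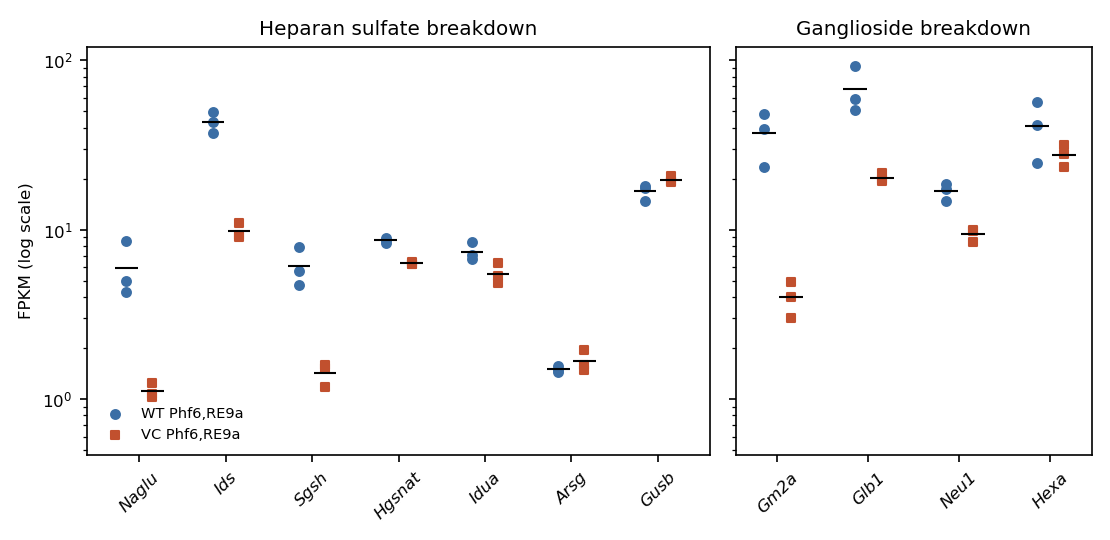
FPKM on a log axis of 7 genes of heparan sulfate breakdown and 4 genes of ganglioside breakdown, with 1 point per library and a black line at each group mean (circles, *WT Phf6,RE9a*; squares, *VC Phf6,RE9a*). *Naglu*, *Ids* and *Sgsh* are 4.23-fold to 5.27-fold lower in *VC Phf6,RE9a*, *Gm2a* is 9.24-fold lower, and *Gusb*, *Arsg* and *Hexa* have groups that lie close or overlap.

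Beside the 35 genes, 129 other lysosomal genes in 6 lists were compared. Of the 114 that were tested, 36 were lower (31.6%) and 29 higher (25.4%), against 22.7% and 21.5% of all genes tested. Scaled by total counts, 22 were lower and 37 higher, against 2474 and 4048 of the 14169 genes tested. The median log2 fold change was -0.13, and 0.01 over all genes tested. Whether any of the lists differs from all genes was not tested, so the counts by list below describe the lists only. Of 29 other hydrolases and cofactors tested, 10 were lower and 8 higher, among them the fucosidase *Fuca2* (log2 fold change -3.27), the phospholipase B-like *Plbd1* (2.17) and the hyaluronidase *Hyal1* (1.97). Of 27 other membrane proteins tested, 8 were lower and 8 higher (29.6% each). The calcium channel *Tpcn2* (-0.78) and *Tmem192* (-0.58) fell furthest, and the transporters *Slc15a3* (1.73) and *Abcb9* (1.11) rose most. *Tmem192* was not called without *VC Phf6,RE9a* library 11 (-0.53, adjusted p = 0.077) or library 12 (-0.55, adjusted p = 0.0711). Without *VC Phf6,RE9a* library 11 the higher genes numbered 5 in each of both lists and the lower membrane proteins 2, and without *VC Phf6,RE9a* library 12 the membrane proteins were 4 higher and 3 lower. Leaving out *WT Phf6,RE9a* library 1 or *VC Phf6,RE9a* library 13 gave 5 higher hydrolases and 5 lower membrane proteins.

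Of 13 cathepsins tested, which are lysosomal proteases, 6 were higher and 0 lower in edgeR and in DESeq2, and their median log2 fold change was 0.98. At an unadjusted p under 0.05 in edgeR, 2 were lower. *Ctsf* went from 1.91, 2.73 and 2.21 FPKM to 48.8, 61.9 and 41.7 FPKM, a 22.4-fold increase (log2 fold change 4.48 ± 0.20, adjusted p = 1.9e-05). *Ctsg*, a neutrophil granule protease, also rose (1.45). The count of 0 lower cathepsins became 1 with other size factors (RLE), in limma, and without *WT Phf6,RE9a* library 3 or *VC Phf6,RE9a* library 12, and the count of higher ones became 3 without *VC Phf6,RE9a* library 11.

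Of 19 V-ATPase subunits tested, 7 were lower and 2 higher, with *Atp6v1g2* (-1.54) and *Atp6v1d* (-0.76) the furthest down, and *Atp6v0e* (0.39) and *Atp6v1c1* (0.34) up. *Atp6v0e* was not called without *WT Phf6,RE9a* library 2 (0.31) or 3 (0.37) or *VC Phf6,RE9a* library 11 (0.42) or 13 (0.28), with adjusted p from 0.0841 to 0.136, which left 1 higher subunit. Among 13 genes that tag and sort hydrolases, 4 were lower and 4 higher (30.8% each). *Gnptab*, the catalytic subunit that starts the mannose 6-phosphate tag, was at 23.4, 19.9 and 18.7 FPKM in *WT Phf6,RE9a* and at 3.97, 4.17 and 3.88 FPKM in *VC Phf6,RE9a*. It was 5.12-fold lower (log2 fold change -2.36 ± 0.11, adjusted p = 1.9e-05), with both groups tight. The retromer subunit *Vps26a* fell by 0.76, and the hydrolase receptors *Igf2r* (2.51, from at most 15 reads in a *WT Phf6,RE9a* library) and *Sort1* (1.65) rose.

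**Figure D4:**
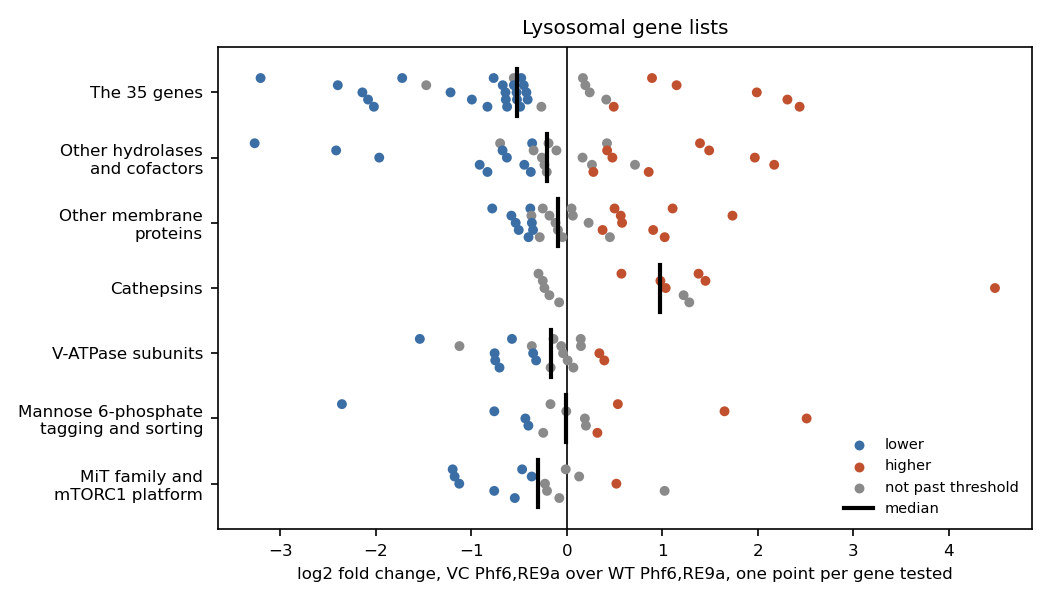
Log2 fold change of every tested gene in the 35-gene set and in 6 other lysosomal lists (points, coloured by call), with a black bar at each median. The median is -0.53 for the 35 genes, between -0.30 and -0.01 for 5 of the lists, and 0.98 for the cathepsins, where *Ctsf* stands alone at 4.48.

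Of the 4 MiT transcription factors, which bind the E-box, 2 were lower and 2 did not pass the test. *Mitf*, the family member known for its role in mast cells and melanocytes, was at 31.3, 20.6 and 19.4 FPKM in *WT Phf6,RE9a* and at 11.3, 9.81 and 11.3 FPKM in *VC Phf6,RE9a*, and fell by 1.13 on the log2 scale (adjusted p = 0.0021). *Tfeb* was at 2.83, 2.96 and 2.34 FPKM and at 2.05, 2.07 and 1.72 FPKM, a log2 fold change of -0.47 with an adjusted p of 0.049, and it was not called in 10 of 13 alternative fits, among them those without any 1 library other than *WT Phf6,RE9a* library 3, with adjusted p up to 0.152. *Tfe3* (0.13, adjusted p = 0.29) and the scarcely read *Tfec* (1.024, adjusted p = 0.0595) did not pass, though *Tfec* was called without *WT Phf6,RE9a* library 3 (1.34, adjusted p = 0.04). In the list of this family with the lysosomal mTORC1 platform, 7 of 14 genes tested were lower and 1 was higher. The folliculin complex genes *Flcn* (-1.20) and *Fnip1* (-1.18), which control the retention of TFEB and TFE3 in the cytoplasm, fell furthest, and *Lamtor5* (0.52) rose, a call lost without *VC Phf6,RE9a* library 13 (0.40, adjusted p = 0.0578).

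Genes with an E-box in the promoter window were counted among the lower genes, the higher genes and those that did not pass the test. The letters occurred in 8 of the 21 lower genes with a window (38.1%), in 1 of 5 higher genes and in 1 of 6 that did not pass. Over all tested genes with a window they occurred in 12.5% of those called lower and 9.39% of those called higher. *Naglu*, *Sgsh*, *Gla* and *Glb1*, with 1 or 2 matches each, were 3.30-fold to 5.27-fold lower. *Lgmn*, with 1 match at -49 bases from its start, was the gene with the largest increase, and *Lamp1*, with 4, differed by 0.19. *Gm2a* (9.24-fold lower) and *Ids* (4.41-fold lower) had no such match in their windows, nor did *Acp5*. The part of the E-box and of the MiT factors in these changes was not tested.

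**Figure D5:**
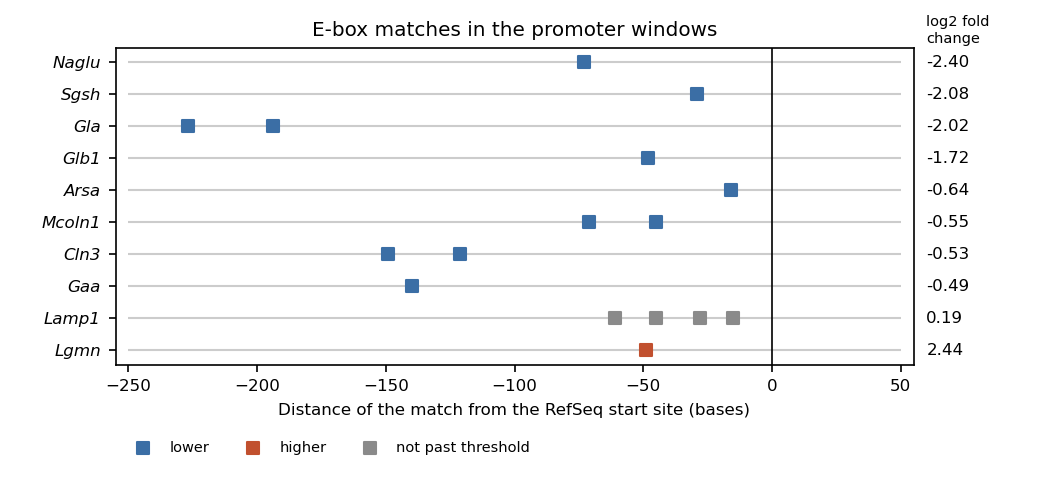
Position of each CACGTG match (squares) relative to the RefSeq start site, in bases, for the 10 of 32 genes that have one, ordered by log2 fold change (right margin) and coloured by call. All matches lie upstream of the start. Those of *Lamp1* (-61 to -15), the higher *Lgmn* (-49) and the lower *Naglu*, *Glb1*, *Sgsh*, *Mcoln1* and *Arsa* lie between -73 and -15, and those of the lower *Gla*, *Cln3* and *Gaa* lie further upstream, between -227 and -121.

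Exons of 13 of the 35 genes overlap another gene. Apart from *Tmppe* on *Glb1*, these neighbours lie on the opposite strand, and the sources used here do not say whether strand was used in counting. The shared stretch was 21.6% of the exon bases for *Sgsh*, whose neighbour *Card14* had at most 8 reads in a library, and 32.3% for *Arsb*, whose neighbour had none. *Ppt1* shares 3.51% of its exon bases with *Cap1*, which had 5045 to 7213 reads. For *Acp2* the share is 12.6% with *Ddb2*, which had 345 to 593 reads against 308 to 450 for *Acp2*. *Npc1* (877 to 1385 reads) shares 4.52% with *Rmc1*, which had 716 to 1592 reads. Of the 6 genes with the largest decrease, *Glb1* and *Sgsh* overlap another gene's exons and *Gm2a*, *Naglu*, *Ids* and *Gla* do not.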

How the data were processed

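RNA-sequencing of sorted GFP+ leukemia cells gave 3 *WT Phf6,RE9a* and 3 *VC Phf6,RE9a* libraries (TruSeq, paired-end NovaSeq reads). The authors deposited 1 table with whole-number read counts per Ensembl gene, not normalized. The same table holds FPKM values that the authors computed from those counts and the listed gene length. In each library the FPKM values imply 1 library size, between 0.916 and 1.07 times its total count, so they were already scaled between libraries. The submitters' processing notes name Bowtie 0.12.0 and the build mm8. The counting tool, annotation and strand setting are not given in the sources used here. Yet 98.33% of the 54495 genes found in GENCODE M21 have the same start and end there, so gene positions are on GRCm38. The authors' columns of group means, fold changes and p-values were not used.

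Counts were tested with edgeR 4.0.16 (filterByExpr, TMM scaling, quasi-likelihood test at defaults, R 4.3.3) over all 14169 genes that passed the filter, on the 6 libraries with group as the only term. P-values are two-sided and Benjamini-Hochberg adjusted over all tested genes, with a threshold of 0.05. Fold changes are *VC Phf6,RE9a* over *WT Phf6,RE9a*. Levels of different genes were compared as FPKM only. On simulated counts of 13882 genes for this comparison, 85.7% of 4-fold and 52.0% of 2-fold changes were called, and 0.0804% of unchanged genes. The simulation held 98 tested genes at each fold and 13686 unchanged ones, whereas 3047 higher and 3213 lower genes were called in the data. The adjusted p depends on the share of changed genes, so these rates need not hold for the data. No 2 libraries of a group agreed within sampling noise. With 3 libraries a group, precision rests on the spread between libraries rather than on depth, and read counts carry counting error besides.

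The 35 genes, the other gene lists and the marker lists were chosen with earlier results of these data known, so they lend no independent support. All 35 genes may be named. Values in every library were given for the 6 largest called changes in each direction and the 4 highest levels, and for other genes where overlap or a single library needed showing. From each other list the 2 largest increases and decreases were named, with the MiT genes, except a gene not reported here. Members outside this rule shown by library (*Hexa*, *Cd63*) and *Hgsnat*, *Arsg* and *M6pr* were chosen after their values were seen. Alternatives were DESeq2 1.42.0, RLE, upper quartile and total-count scaling, no count filter, at least 10 reads in every library, limma 3.58.1 on log2(FPKM + 1), each library left out, and a 2-fold minimum. Promoter windows came from RefSeq (GRCm38.p6). Sequences of the proteins were not used here.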

Additional observations from a re-analysis of the deposited data

How the results depend on the processing

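None of the 35 genes changed direction in any of the alternative fits run, and 18 of the 22 lower genes and 4 of the 6 higher genes were called in all of them. The counts of members called ranged from 18 to 23 lower and from 4 to 8 higher over the changed scalings, filters and tests and the left-out libraries. The 2-fold minimum left 7 lower members, and 8 lower and 13 higher genes of the other lysosomal lists. Scaling by total counts moved the median of all tested genes from 0.01 to 0.16 on the log2 scale. With it 18 members were lower (*Gaa*, *Psap*, *Idua* and *Fuca1* lost) and 8 higher (*Lamp1* and *Gusb* gained), and 22 rather than 36 of the other lysosomal genes were lower. Leaving out 1 library gave 19 to 23 lower and 4 to 5 higher members, and 24 to 41 lower and 18 to 25 higher other lysosomal genes, the 18 without *VC Phf6,RE9a* library 11. The summed level of the members in *VC Phf6,RE9a* was 0.845 of that in *WT Phf6,RE9a* as FPKM and 0.739 as TMM-scaled CPM, in which long genes weigh more. On log2(FPKM + 1), changes of genes near or under 1 FPKM shrank, that of *Galc* to 0.06 (adjusted p = 0.416) and that of *Arsb* to 0.48. With no count filter *Cd63* was called (adjusted p = 0.0253). Depth limits *Galc*, *Arsb* and *Scarb2*, with at most 78 reads in a library. No paired analysis was possible because the groups share no replicate number.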
